A study of Mus musculus with 5 samples.

Results

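The genes described here are the E-box-driven repressors of the mammalian circadian clock: the Period genes Per1, Per2 and Per3, the Cryptochrome genes Cry1 and Cry2, the Dec genes Bhlhe40 and Bhlhe41, and Ciart. They were chosen by name and matched through their Ensembl identifiers, and all 8 were found among the 19127 genes of the deposited table. All 8 also passed the low-value filter that left 14632 genes for testing, Bhlhe41 only through a single group, as described with that gene. Neutrophils had been sorted on the surface marker Ly6G from the blood of male mice aged 7 to 10 weeks, at Zeitgeber time 13 (20 h on the wall clock), and profiled by RNA sequencing. In 2 libraries, numbered 2 and 3, the mice carried floxed Bmal1 (BMALf/f x Mrp8Cre). In 3 libraries, numbered 1, 2 and 3, they carried floxed Cxcr4 (CXCR4f/f x Mrp8Cre). All 5 libraries thus share the Mrp8Cre transgene, whose promoter is active in neutrophils and their precursors, and mice with neither floxed gene were not analysed here. No label ties a library to an animal of its own. A p-value here therefore reflects the variation among the libraries, some of which may be technical. Values of a group are listed in the order of its library numbers.

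In the core clock, BMAL1 (gene symbol Arntl) pairs with CLOCK and activates genes that carry E-boxes, among them those for the PER and CRY proteins. PER and CRY proteins then form complexes that enter the nucleus and inhibit BMAL1 and CLOCK, which closes the daily loop. DEC1 (Bhlhe40) and DEC2 (Bhlhe41) are basic helix-loop-helix repressors that bind E-boxes themselves, and CHRONO (Ciart) is a further repressor that binds BMAL1. Per1 and Bhlhe40 also respond within hours to stimuli outside the clock, such as hormones and cellular stress. The deletion of Bmal1 in neutrophils addresses how this clock shapes the daily cycle of neutrophils in blood, and the Cxcr4 receptor, for the chemokine CXCL12, has been studied beside it in neutrophil ageing.

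Promoter windows from 250 bases before to 50 bases after an annotated start (RefSeq, GRCm38.p6) were listed for 6 of the 8 genes, with no entry for Per2 and Bhlhe40. They were searched on both strands for the E-box CACGTG, the related sequence CACGTT, the D-box TTATGTAA and the partial cAMP response element TGACGT. No match overlapped another. Those of Per1, Ciart, Cry1 and Per3 are shown because they hold different sets of these elements, with each match in capitals.

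Per1, chr11:69098699-69098998, plus strand: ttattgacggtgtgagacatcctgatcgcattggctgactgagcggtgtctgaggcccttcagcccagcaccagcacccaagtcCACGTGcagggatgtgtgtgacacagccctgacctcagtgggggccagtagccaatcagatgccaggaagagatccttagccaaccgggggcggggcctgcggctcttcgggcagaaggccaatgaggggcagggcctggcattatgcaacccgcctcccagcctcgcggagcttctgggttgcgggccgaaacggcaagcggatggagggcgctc
Ciart, chr3:95882179-95882478, minus strand: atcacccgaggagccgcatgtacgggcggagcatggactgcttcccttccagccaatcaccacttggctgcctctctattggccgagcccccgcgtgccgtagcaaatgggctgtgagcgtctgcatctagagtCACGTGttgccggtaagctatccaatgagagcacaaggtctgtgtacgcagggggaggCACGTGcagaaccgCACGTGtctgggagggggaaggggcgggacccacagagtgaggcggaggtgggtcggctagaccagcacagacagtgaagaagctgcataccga
Cry1, chr10:85185005-85185304, minus strand: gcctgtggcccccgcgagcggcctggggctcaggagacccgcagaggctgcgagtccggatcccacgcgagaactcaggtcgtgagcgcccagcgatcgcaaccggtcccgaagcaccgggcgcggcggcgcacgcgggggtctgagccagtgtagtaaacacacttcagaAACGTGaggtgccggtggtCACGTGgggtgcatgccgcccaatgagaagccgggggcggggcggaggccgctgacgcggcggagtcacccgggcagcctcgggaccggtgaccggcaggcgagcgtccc
Per3, chr4:151044616-151044915, minus strand: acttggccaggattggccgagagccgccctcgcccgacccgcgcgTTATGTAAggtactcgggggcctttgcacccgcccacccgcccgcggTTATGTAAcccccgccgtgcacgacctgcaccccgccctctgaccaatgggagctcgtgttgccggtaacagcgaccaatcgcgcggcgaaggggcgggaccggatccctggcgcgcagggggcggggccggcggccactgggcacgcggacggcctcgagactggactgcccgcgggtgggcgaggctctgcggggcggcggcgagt

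The capitals in the first of 2 listed Per1 windows mark 1 E-box, which begins 166 bases upstream of the start. The second Per1 window, at chr11:69099902-69100201, held no E-box and 1 partial cAMP response element, 132 bases upstream. Ciart had 3 E-boxes, beginning 116, 58 and 44 bases upstream. Cry1 had 1 E-box 60 bases upstream, and 1 CACGTT on the opposite strand 79 bases upstream. Per3 had no E-box and 2 D-boxes, 205 and 158 bases upstream. The Bhlhe41 window (chr6:145865371-145865670) held 1 E-box 153 bases upstream, and the Cry2 window (chr2:92434020-92434319) held 1 CACGTT 166 bases upstream. Of all 32851 listed windows, 7.15% held an E-box and 0.0883% held at least 3. CACGTT was held by 4.68%, the D-box by 0.938% and at least 2 D-boxes by 0.0213%, and the partial cAMP response element by 7.51%. Such matches describe the letters and are not evidence of binding.

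The libraries differed in depth and in cell type markers. The deposited normalised counts gave back 356872 whole reads for Cxcr4-labelled library 1, the shallowest, and 9101826 for Cxcr4-labelled library 3, the deepest. As a detection floor, 3 reads corresponded to a value of 6.46 in Cxcr4-labelled library 1 and between 0.351 and 0.902 in the other 4 libraries. Core neutrophil genes (16 genes) made up 1.15% and 0.792% of the column total under the Bmal1 label, and 2.23%, 0.521% and 0.0454% under the Cxcr4 label. Ly6g, the gene of the sorting marker, gave 21 and 23 reads under the Bmal1 label, and 14, 0 and 9 under the Cxcr4 label. As normalised counts these were 6.31 and 5.16, against 30.1, 0 and 1.05, so the shallow Cxcr4-labelled library 1 was the highest. Pan-endothelial genes (16 genes) made up 0.853% and 1.26%, against 0.970%, 1.45% and 2.11%. Liver sinusoidal endothelial genes (8 genes) made up 0.0767% and 1.35%, against 0.467%, 0.133% and 2.06%. Their sum was thus high in both libraries numbered 3 and low in both numbered 2. Lyve1 did not follow this order, with 151.2 and 367.1, against 105.5, 692.0 and 302.8. It held 692.0 of the sum of 1309 in Cxcr4-labelled library 2. None of these 24 endothelial genes was at 0 in any library. Erythroid genes (8 genes) made up 0.348% and 0.256%, against 0.288%, 0.00893% and 0.0172%, and 4 of the 6 tested were higher in the Bmal1-labelled libraries without overlap. Monocyte genes (9 genes) made up 0.0456% and 0.0258%, against 0.0252%, 0.00743% and 0.00599%, and 4 of the 8 tested were higher without overlap. Of all tested genes, 13.6% were higher in the Bmal1-labelled libraries without overlap. Each of 7 further lists, of mural, fibroblast, hepatocyte, B cell, T and NK cell, eosinophil and platelet genes, held at most 0.0398% of any column. Cxcr4-labelled library 3 therefore stood apart, with the lowest neutrophil and the highest endothelial share. Arntl did not follow the labels, with 4.81 and 27.6 under the Bmal1 label, against 15.1, 1.90 and 1.05 under the Cxcr4 label. These values rest on 16 and 123 reads, against 7, 9 and 9. Cxcr4 did follow the labels without overlap, with 398.6 and 127.8 under the Bmal1 label. Under the Cxcr4 label it had the lower values of 15.1, 72.2 and 4.80. Its difference, Bmal1-labelled minus Cxcr4-labelled, was 3.58 on the log2(value + 1) scale (limma unadjusted p 0.00735, adjusted p 0.9999). Because Arntl did not follow the labels, each group is called by its label. The values are counts of a whole gene, so whether a floxed part of it was deleted was not tested. In sorted cells pooled for RNA, fewer cells of a type and less RNA per cell cannot be told apart.

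Between the groups, Per2 and Per3 were lower in both Bmal1-labelled libraries than in every Cxcr4-labelled library, and no other member separated the groups. None of the 8 genes passed the threshold of an adjusted p of 0.05 by limma, edgeR or DESeq2. By limma and by edgeR 0 of 14632 genes were called (0%), with 612 and 524 genes at an unadjusted p under 0.05, and DESeq2 called 13 genes (0.0888%). In the limma fit of the values as deposited, Per2 was the only member at an unadjusted p under 0.05, where 4.18% of all tested genes stood, 0.499% on the lower side. With 4 other scalings of the columns Per3 was also under 0.05, at unadjusted p-values between 0.0313 and 0.0428. The 2 members without overlap compare with 5.22% of all tested genes that were lower in the Bmal1-labelled libraries without overlap. With 7 of 8 limma differences below 0, the members had a median of -1.07 on the log2(value + 1) scale, which was -0.33 without Cxcr4-labelled library 3. Among the 7, Bhlhe41 passed the low-value filter only through the Cxcr4-labelled libraries. Over all tested genes 44.8% of differences were below 0 and the median was 0.11. The direction depends on single libraries for Per1, Cry1 and Ciart, as described with each gene.

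**Figure D1:**
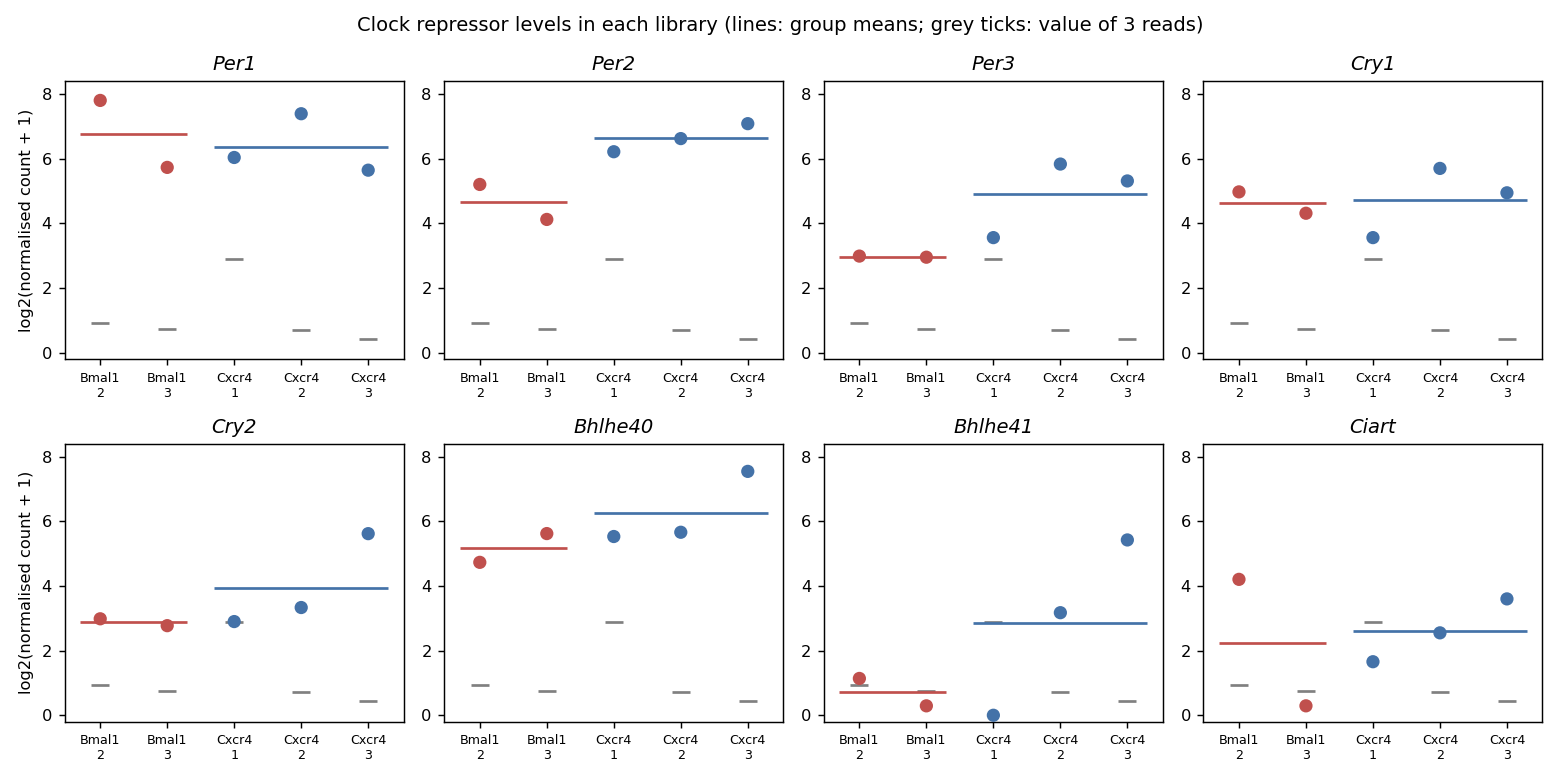
Levels of the 8 genes in each library, as log2(normalised count + 1), with 2 Bmal1-labelled libraries (red) left of 3 Cxcr4-labelled libraries (blue), group means as lines and the value of 3 reads as grey ticks. Per2 and Per3 show no overlap between the groups, and Per3 in Cxcr4-labelled library 1 lies close to the floor of that library.

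Per2 encodes the PER protein whose loss most disturbs behavioural rhythms in mice. The gene (ENSMUSG00000055866, chr1:91415982-91459324, minus strand of GRCm38, protein-coding) had normalised counts of 35.8 and 16.4 in the Bmal1-labelled libraries, against 73.2, 97.3 and 134.4 in the Cxcr4-labelled ones. Every Cxcr4-labelled library was thus above both Bmal1-labelled ones. The means were 26.1 ± 13.7 (SD, n = 2) and 101.6 ± 30.9 (SD, n = 3). The difference was -1.98 on the log2 scale (SE 0.56), and limma gave it a p of 0.00719 before adjustment and an adjusted p of 0.9999. By unadjusted p it ranked 45th of the 14632 genes with limma, 44th with edgeR (log2 fold change -1.97) and 49th with DESeq2 (-1.98). The difference was -1.76 without Cxcr4-labelled library 3 and -1.44 without Bmal1-labelled library 3, and it stayed below 0 in each fit that left out 1 library.

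Per3, a PER protein less needed for the core loop, showed the same order of groups at a lower level. The gene (ENSMUSG00000028957, chr4:151003652-151044665, minus strand) had 6.91 and 6.73 in the Bmal1-labelled libraries, against 10.8, 55.9 and 38.6 in the Cxcr4-labelled ones. The value of 10.8 in Cxcr4-labelled library 1 rests on 5 reads, where 3 reads equal 6.46, so the gap to the Bmal1-labelled values is small there. The 2 Bmal1-labelled values rest on 23 and 30 reads and differ little from each other. The difference was -1.93 (SE 0.85, limma unadjusted p 0.0518, adjusted p 0.9999), and edgeR gave -2.39 (unadjusted p 0.0186, adjusted p 0.996). Leaving out 1 library moved the limma value between -2.60 and -1.47. Per3 lies within the much longer gene Camta1 on the same strand, with no exonic base shared.

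Per1, which can be induced acutely as well as by the clock, did not follow Per2 and Per3. The gene (ENSMUSG00000020893, chr11:69095217-69109960, plus strand) had 221.9 and 52.0 in the Bmal1-labelled libraries, against 64.6, 166.6 and 48.9 in the Cxcr4-labelled ones. It was high in both libraries numbered 2 and lower in the other 3, and the groups overlapped. The difference was 0.41 (SE 0.75, limma unadjusted p 0.602), less than its standard error. Without Bmal1-labelled library 2 it was -0.63. Both libraries with high Per1 were those with the lowest share of liver sinusoidal genes, 0.0767% and 0.133% of the column, whose part in the result was not tested.

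Because all genes of a library share its scaling, ratios within a library do not depend on it. These ratios were chosen after their values were seen. The reads of Per1 over those of Per2 stood at 6.20 and 3.18 in the Bmal1-labelled libraries, against 0.882, 1.71 and 0.364 in the Cxcr4-labelled ones, without overlap. The Per1 to Per3 ratio stood at 32.1 and 7.73, against 6.0, 2.98 and 1.27, also without overlap. Such separation was common, since 63.2% of all other tested genes had a ratio to Per2 that was higher in the Bmal1-labelled libraries without overlap, and 62% had such a ratio to Per3. The Per2 to Per3 ratio overlapped, at 5.17 and 2.43 against 6.80, 1.74 and 3.48. Per1 thus shared this separation with most tested genes.

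Cry1 encodes the stronger CRY repressor of the pair and overlapped between the groups. The gene (ENSMUSG00000020038, chr10:85131700-85185064, minus strand) had 30.4 and 18.8 in the Bmal1-labelled libraries, against 10.8, 50.9 and 29.7 in the Cxcr4-labelled ones. The lowest value, in Cxcr4-labelled library 1, rests on 5 reads. The difference was -0.09 (SE 0.77, limma unadjusted p 0.908), and it was above 0 in the fits without Bmal1-labelled library 3 (0.24) or Cxcr4-labelled library 2 (0.39) or 3 (0.014).

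Cry2, whose protein represses more weakly and shapes the period of the clock, was high in a single library. The gene (ENSMUSG00000068742, chr2:92403646-92434043, minus strand) had 6.91 and 5.83 in the Bmal1-labelled libraries, against 6.46, 9.08 and 48.1 in the Cxcr4-labelled ones. The value of 6.46 is exactly 3 reads, so 4 of the 5 libraries lay between 5.83 and 9.08 and Cxcr4-labelled library 3 alone was high. The difference of -1.07 (SE 1.01, limma unadjusted p 0.319) shrank to -0.24 without that library. Cry2 shares 295 exonic bases with D930015M05Rik on the opposite strand, and since no source used here states a strand-specific count, their reads cannot be told apart there. The Cry1 to Cry2 ratio was 4.39 and 3.23 in the Bmal1-labelled libraries, against 1.67, 5.60 and 0.618, and only in Cxcr4-labelled library 3 did Cry2 have more reads than Cry1.

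Bhlhe40, or DEC1, a repressor that is also induced by hypoxia and activation in immune cells, was likewise highest in Cxcr4-labelled library 3. The gene (ENSMUSG00000030103, chr6:108660629-108666925, plus strand) had 25.6 and 48.2 in the Bmal1-labelled libraries, against 45.2, 49.6 and 185.7 in the Cxcr4-labelled ones. Bmal1-labelled library 3 lay within 5 of Cxcr4-labelled libraries 1 and 2 in normalised counts, so the overlap is narrow. The difference was -1.07 (SE 0.72, limma unadjusted p 0.172), and -0.42 without Cxcr4-labelled library 3. Of its exonic bases, 118 are shared with an antisense gene that is not among the rows used.

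Bhlhe41, or DEC2, the closest relative of DEC1, had few or no reads in 3 of the 5 libraries. The gene (ENSMUSG00000030256, chr6:145858243-145865558, minus strand) had 1.2 and 0.224 under the Bmal1 label, from 4 reads and 1 read. Under the Cxcr4 label it had 0, 8.02 and 41.9, from 0, 38 and 358 reads. A count of 0 in Cxcr4-labelled library 1 allows a value of up to 6.46, so that library could have held more than both Bmal1-labelled ones. Cxcr4-labelled library 2 was 6.67 times as high as Bmal1-labelled library 2 (95% counting interval 2.40 to 25.7). Its mean was 0.713 under the Bmal1 label and 16.6 under the Cxcr4 label, and it passed the low-value filter only through the latter. The direction of its difference is therefore not independent of that filter. The difference was -2.15 (SE 1.52, limma unadjusted p 0.194), and edgeR on the reads gave -4.56 (unadjusted p 0.0356, adjusted p 0.996). Without Cxcr4-labelled library 3 the limma difference was -0.87. Bhlhe41 shares 1280 exonic bases with a transcript annotated on the opposite strand.

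Ciart, or CHRONO, varied within the Bmal1-labelled group more than between the groups. The gene (ENSMUSG00000038550, chr3:95878503-95882251, minus strand) had 17.4 and 0.224 under the Bmal1 label, from 58 reads and 1 read. Under the Cxcr4 label it had 2.15, 4.86 and 11.1, from 1, 23 and 95 reads. Both the highest and the lowest value were thus in Bmal1-labelled libraries, whose ratio was 77.8 with a 95% counting interval of 13.4 to 3124. The difference was -0.35 (SE 1.33, limma unadjusted p 0.797). It was -2.31 without Bmal1-labelled library 2, but 1.60 when Bmal1-labelled library 3 was left out and 0.15 when Cxcr4-labelled library 3 was. edgeR and DESeq2 gave 0.52 and 0.55, so its direction was not the same for all 3 tools.

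**Figure D2:**
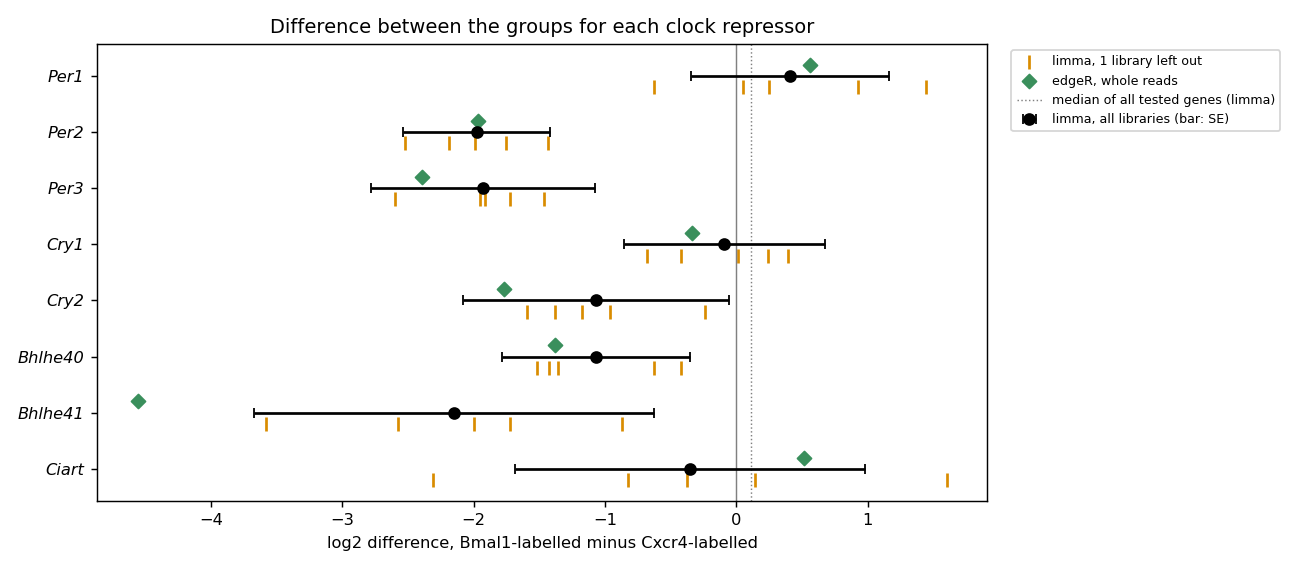
Difference between the groups for each gene, in log2 units (Bmal1-labelled minus Cxcr4-labelled), with the limma value and its SE (black), limma values with 1 library left out (orange) and edgeR on whole reads (green), and the median of all tested genes dotted. For Per2 every mark lies between -2.52 and -1.44, while the marks of Per1, Cry1 and Ciart lie on both sides of 0.

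Since the libraries differed in endothelial content, the groups were also set side by side among libraries of like liver sinusoidal share, a pairing chosen after the values were seen. The libraries numbered 2 were both low in the sum of these genes and those numbered 3 were both high, though Lyve1 did not follow. That pairing leaves 1 library per group and no test. The pairs were not equal in cell type markers, since in both of them the Cxcr4-labelled library had the higher pan-endothelial and liver sinusoidal shares and the lower neutrophil share. Of the 8 genes, 6 were lower in the Bmal1-labelled library both times, compared with 29.8% of all tested genes. Per2 was 0.368 times as high in Bmal1-labelled library 2 as in Cxcr4-labelled library 2, and 0.122 times as high in library 3 of each label. Per3 stood at 0.124 and 0.174 times, and Cry1 at 0.597 and 0.633 times. Cry2 (0.762 and 0.121 times) and Bhlhe40 (0.515 and 0.260 times) were further apart in the libraries numbered 3. Per1 was 1.33 and 1.06 times as high, the only member above its counterpart both times (30.6% of all tested genes), and Ciart differed in opposite directions. It was 3.59 times as high in Bmal1-labelled library 2 as in Cxcr4-labelled library 2, whereas Cxcr4-labelled library 3 was 49.6 times as high as Bmal1-labelled library 3, whose value rests on 1 read (95% counting interval 8.69 to 1980.0). Cxcr4-labelled library 1, which has no counterpart, is left out of these pairs. It held 99 reads of the 8 genes in all.

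**Figure D3:**
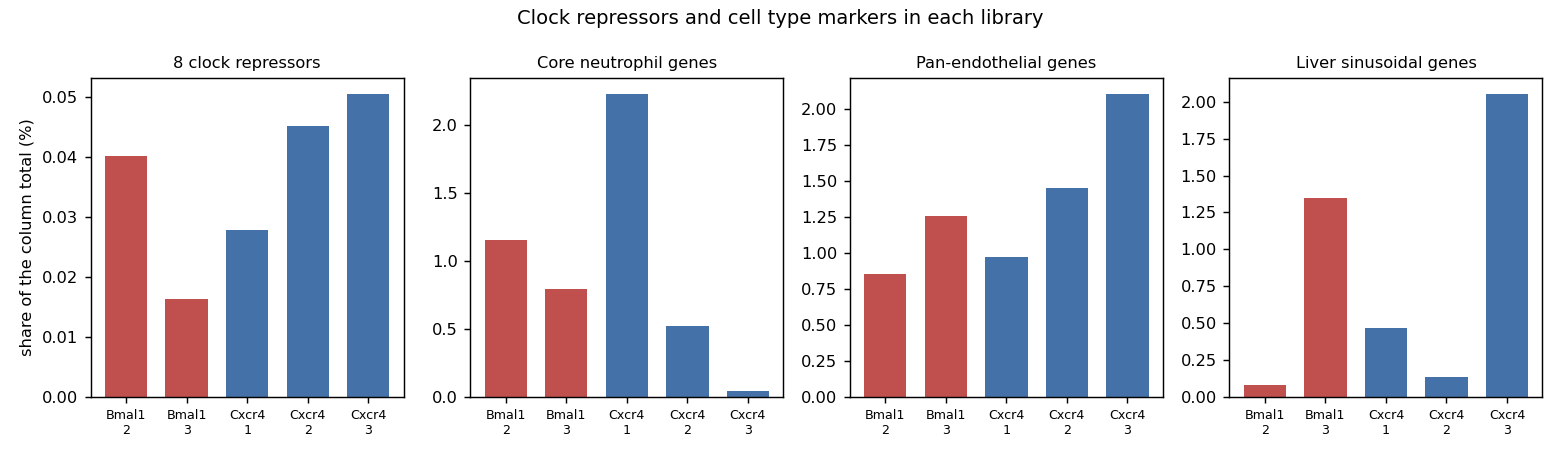
Share of each library's column total (%) held by the 8 clock repressors, the core neutrophil genes, the pan-endothelial genes and the liver sinusoidal genes, with Bmal1-labelled libraries in red left of Cxcr4-labelled libraries in blue. Cxcr4-labelled library 3 had the lowest neutrophil share (0.0454%) and the highest share of each of the other 3 sets.

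The summed level of the 8 genes overlapped between the groups. It was 346.0 and 148.4 under the Bmal1 label, against 213.1, 442.3 and 538.7 under the Cxcr4 label. These sums made up 0.0401% and 0.0163% of the column, against 0.0277%, 0.0451% and 0.0505%. Per1 accounted for 221.9 of the 346.0 in Bmal1-labelled library 2.

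The make-up of these reads also differed between libraries. Per1 held 64.1% of them in Bmal1-labelled library 2 (exact binomial 95% interval 61.3% to 66.9%) and 35.0% in Bmal1-labelled library 3 (31.4% to 38.8%). Under the Cxcr4 label it held 30.3% (21.5% to 40.4%), 37.7% (35.6% to 39.8%) and 9.09% (8.27% to 9.95%). The share of Per2 was 10.3% and 11.0% in the Bmal1-labelled libraries, against 34.3%, 22.0% and 25.0%, with no overlap of the values or of their intervals. The share of Per3 was also lower without overlap, at 1.998% and 4.53% against 5.05%, 12.6% and 7.17%, though its intervals overlapped. Ratios to Per2 and to Per3 were higher in the Bmal1-labelled libraries without overlap for 63.2% and 62% of other tested genes. The shares of Per2 and Per3 thus add little to their levels described above. Bhlhe40 held 7.38% and 32.5%, against 21.2%, 11.2% and 34.5%, so it was the largest part in Cxcr4-labelled library 3 and nearly as large as Per1 in Bmal1-labelled library 3. Cry1 varied less, at 8.77% and 12.7%, against 5.05%, 11.5% and 5.52%. These intervals cover counting error only, since reads that carry no molecular identifiers need not stem from separate molecules.

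**Figure D4:**
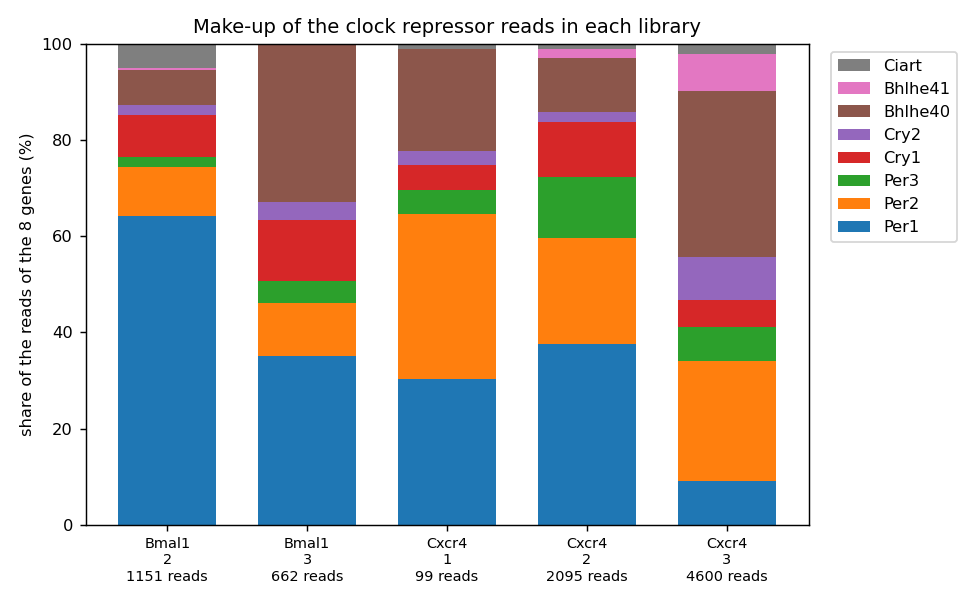
Share (%) of the reads of the 8 genes that each gene holds in each library, Bmal1-labelled libraries on the left, with the number of reads under each bar. Per1 takes 64.1% in Bmal1-labelled library 2 and 9.09% in Cxcr4-labelled library 3, where Bhlhe40 and Per2 take 34.5% and 25.0%.

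Levels of different genes were compared per kb of annotated exon, in normalised counts per kb, within each library. Per1 came first or second of the 8 in 4 of 5 libraries, with 39.4 and 9.24 per kb in the Bmal1-labelled libraries and 11.5, 29.6 and 8.69 per kb in the Cxcr4-labelled ones. Bhlhe40 came first in Bmal1-labelled library 3 (10.2 per kb) and Cxcr4-labelled library 3 (39.5 per kb). Per2 came first in Cxcr4-labelled library 1, with 12.5 per kb, and second in Cxcr4-labelled libraries 2 and 3 (16.6 and 23.0 per kb), but ranked 4 in both Bmal1-labelled libraries (6.11 and 2.80 per kb). Cry1 ranked between 2 and 4, from 3.22 to 15.2 per kb over the 5 libraries, and lay above Per2 in both Bmal1-labelled libraries. Per3 (0.700 to 5.82 per kb), Cry2 (0.922 to 7.62 per kb) and Ciart (0.0992 to 7.71 per kb) mostly lay lower. Ciart ranked 3 in Bmal1-labelled library 2, above Per2 and Bhlhe40. Bhlhe41 was last in 4 of 5 libraries (0 to 6.24 per kb). By mean over the 5 libraries, the spread exceeded the gaps between neighbours among the upper 4 genes and among the lower 4. Only the gap between Cry1 and Ciart was larger than the spread of both. Per1 averaged 19.7 ± 14.0, Bhlhe40 15.1 ± 13.8, Per2 12.2 ± 8.08 and Cry1 8.42 ± 4.52 per kb (SD, n = 5), so these 4 genes cannot be ordered by their means. Within libraries, Per1 lay above Cry1 in every library but Cxcr4-labelled library 3 (8.69 against 8.91 per kb). Ciart averaged 3.17 ± 3.13, Per3 2.48 ± 2.33, Cry2 2.42 ± 2.91 and Bhlhe41 1.53 ± 2.68 per kb, and their gaps are likewise smaller than the spread. Exon lengths came from the union of all annotated transcripts, which can differ from the transcripts present.

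Likeness to Per2 was measured as the root mean square difference between centred log2(value + 1) profiles over the 5 libraries. Outside the members, Gnptg (0.19), Vps25 (0.24) and Mpv17l2 (0.25) were nearest of 14631 genes. Among the members, Per3 was nearest, at rank 268 (0.68), followed by Cry2 at rank 1033 and Bhlhe40 at rank 1442. Cry1 ranked 3703, Ciart 5756, Per1 7612 and Bhlhe41 8195. For the sum of the 8 genes the nearest were Ift52, Fadd and Vat1 (0.13, 0.14 and 0.17). With 5 libraries and so many genes, such close profiles are a description only.

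The other arms of the clock were read beside the repressors. Of the REV-ERB and ROR nuclear receptors, which bind ROR elements, all 4 tested had differences below 0 (median -1.62), and none of them passed the threshold. That median was -2.21 with edgeR, -2.17 without Cxcr4-labelled library 1 and -1.44 without Cxcr4-labelled library 2. Nr1d1, which encodes REV-ERB alpha and has E-boxes like the Per genes, had 14.1 and 25.3 in the Bmal1-labelled libraries, against 36.6, 45.0 and 81.9, without overlap. Nr1d2 had 25.6 and 37.0, against 30.1, 197.8 and 240.1, and overlapped through Cxcr4-labelled library 1. Rora, an activator through ROR elements, had 14.7 and 16.8, against 38.7, 107.9 and 51.1. Among the 4 D-box factors, 3 differences were below 0. Their median of -2.04 was -0.74 without Cxcr4-labelled library 3, -3.76 without Cxcr4-labelled library 1 and -3.85 with edgeR. It was -0.17 without both libraries numbered 3. Tef, a D-box activator, had 8.12 and 3.81, against 19.4, 192.8 and 111.2, while Nfil3, the D-box repressor, had 22.2 and 9.42, against 10.8, 13.5 and 0.468. Of the activators only Arntl and Clock were tested, and Clock had 54.4 and 91.3, against 45.2, 105.6 and 100.6, with overlap.

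**Figure D5:**
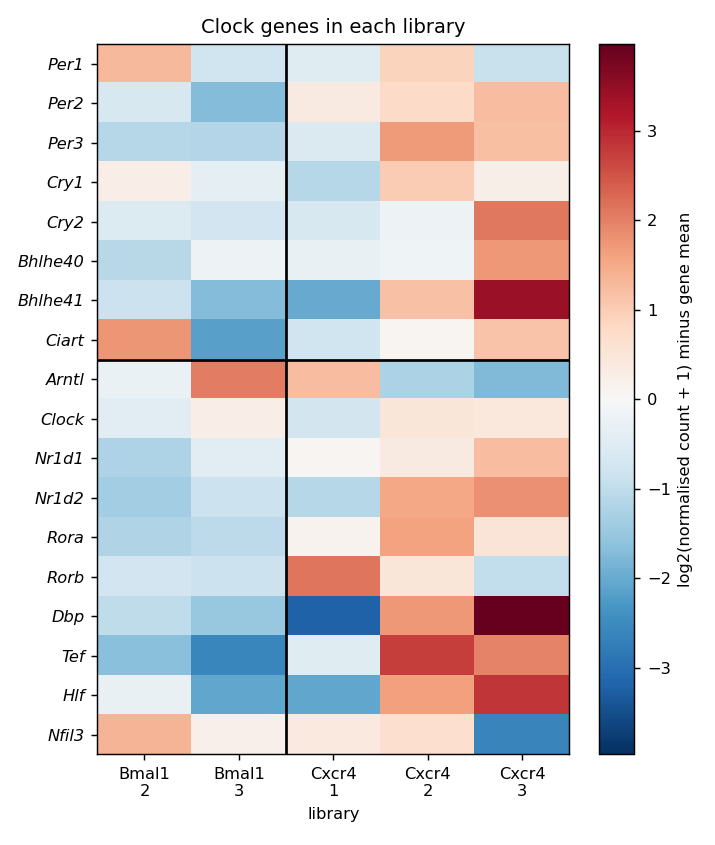
Level of each clock gene in each library, as log2(normalised count + 1) minus the mean of that gene over the 5 libraries (red higher, blue lower), with the 8 repressors above the line and the activators, nuclear receptors and D-box factors below it, and Bmal1-labelled libraries on the left. Per2, Per3, Nr1d1, Rora and Tef are lower in both Bmal1-labelled libraries than in every Cxcr4-labelled one, while Arntl is highest in Bmal1-labelled library 3.

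Genes that act on PER and CRY proteins showed no common direction. Of 17 tested kinases, ubiquitin ligase parts, deubiquitinases and phosphatases, 6 differences were below 0 and 11 above (median 0.086, but -0.089 without Cxcr4-labelled library 1 and -0.045 with edgeR), and 0 passed the threshold with limma, with 0 at an unadjusted p under 0.05. Csnk1d, which encodes casein kinase 1 delta that marks PER proteins for decay, had 230.9 and 197.1, against 144.2, 194.2 and 144.6, without overlap by a narrow margin. Btrc, a ligase subunit that binds phosphorylated PER, had 25.9 and 18.4, against 25.8, 48.1 and 54.7. Of 16 cofactors found in PER complexes, 8 differences were on each side of 0. Ncor1, a corepressor, had 705.6 and 531.9, against 471.4, 339.1 and 378.6.

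Genes induced by the stimuli that also act on Per1 and Bhlhe40 differed in direction from list to list. CREB-induced and immediate early genes had 12 of 14 differences above 0 (median 0.89, and 0.52 without Bmal1-labelled library 2), with 0 past the threshold. Zfp36, which encodes a protein that destabilises mRNA, had 1538 and 809.7, against 320.7, 356.6 and 319.9. Junb had 1042 and 567.7, against 228.2, 316.0 and 84.1. Glucocorticoid-induced genes had 8 of 10 differences below 0 (median -0.55), with 0 past the threshold. That median was 0.26 without Bmal1-labelled library 3, -0.084 without Cxcr4-labelled library 2 and -0.84 without Cxcr4-labelled library 3. Dusp1, a phosphatase of MAP kinases, had 2713 and 1078, against 568.3, 728.1 and 297.7, whereas Klf9, a transcription factor, had 86.3 and 66.6, against 111.9, 356.8 and 404.4. Of 9 tested hypoxia-induced genes, 6 differences were above 0, with 0 past the threshold. Their median of 0.28 was -0.046 without Bmal1-labelled library 2, 0.11 without Cxcr4-labelled library 1, 0.75 without Cxcr4-labelled library 2 and -0.024 with edgeR. Core neutrophil genes had 13 of 16 differences above 0. Their median of 0.91 was -0.30 without Cxcr4-labelled library 3, 2.09 without Cxcr4-labelled library 1, -0.40 with edgeR and -0.48 with DESeq2. Pan-endothelial genes had 16 of 16 differences below 0 (median -0.54, and between -0.95 and -0.22 without 1 library). Erythroid genes had 6 of 6 tested differences above 0 (median 3.25) and monocyte genes 7 of 8 (median 1.59). The part of these cell type markers in the values above was not tested.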

How the data were processed

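Per the submitters' processing notes, CASAVA 1.8.2, cutadapt, RSEM 1.2.3 and the build GRCm38 were used, with no role or order; per the labels' protocols, RNA was amplified with a kit for very small inputs. How the values were normalised and whether strand was used is not given in the sources used here. Values are a signal deposited by the authors, normalised read counts of 19127 genes (18847 matched to symbols). Dividing a column by its smallest positive entry turned 100% of its values into whole reads, with a tolerance of 0.01, from 356872 to 9101826 per library.

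limma 3.58.1 (R 4.3.3) was fitted on log2(value + 1) for 14632 genes, those whose mean CPM reached 1, with an intensity trend in the variance prior. Differences are Bmal1-labelled minus Cxcr4-labelled, tests were two-sided with Benjamini-Hochberg adjustment over all tested genes, and low genes are understated on this scale. The quasi-likelihood test of edgeR 4.0.16 and DESeq2 1.42.0 on the recovered reads were alternatives, beside pseudocount, filter, scaling, variance prior, left-out libraries and the replicate block. The limma and edgeR tests were checked on simulated data with large changes and no differences in cell type markers, which does not show their power here. DESeq2 was not checked in this way. Gene positions and exons came from GENCODE M21 on GRCm38.

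The 8 members and the gene lists were chosen with earlier results of these data known. Named genes are the members, both targeted genes, up to 4 genes per list with the smallest p, and the 3 genes nearest in profile to Per2 and to the members' sum. Named beyond these are genes of the clock lists, Ly6g as the gene of the sorting marker, and genes that overlap a member. Lyve1, Camp and Ngp are named because they departed from the other genes of their lists. No pair of libraries held the same values.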

Additional observations from a re-analysis of the deposited data

How the results depend on the processing

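No member passed the threshold under any alternative run, and the members' median difference (-1.07) ran from -1.56 to -0.33 over the fits without 1 library, was -0.29 without both libraries numbered 3, and was -1.58 with edgeR and -1.55 with DESeq2. Genes called numbered 0 in each fit with limma and edgeR and 13 with DESeq2. The count of members without overlap, 2 (beside 18.8% of all tested genes in either direction), was 4 with median-ratio or TMM scaling (19.1% and 18.9%), 2 to 5 without 1 library (31.0% to 43.3%) and 5 without both libraries numbered 3 (55.4%). Of the 5, 3 were lower and 2 higher in the Bmal1-labelled libraries without both libraries numbered 3 and without Bmal1-labelled library 3. Ciart changed sign with a pseudocount of 4 (0.021), edgeR (0.52), DESeq2 (0.55), and without both libraries numbered 3 (2.10). Without 1 library Ciart ran from -2.31 to 1.60, Cry1 from -0.68 to 0.39 and Per1 from -0.63 to 1.44. Cry1 was 0.34 without both libraries numbered 3. The cause was not tested. The median over all genes moved from 0.11 to -0.028 with quantile normalisation, and to -0.086 and -0.099 with edgeR and DESeq2. Replicate numbers 2 and 3 occur in both groups, with no label tying them to a shared source. Over 14632 genes the deviations from group means correlated at 0.28 (number 2) and 0.39 (number 3), and those values are not independent. With the replicate block 0 genes were called, 2183 had an unadjusted p under 0.05, and the members' median was -1.51. The limma unadjusted p was under 0.05 for Per2 (0.00785), Per3 (0.00858), Bhlhe40 (0.0219) and Bhlhe41 (0.0242). In that fit Cxcr4-labelled library 1 has a block of its own and adds nothing to the differences. They equal those of the fit without that library, so the block fit is not a further result on all libraries. Where a single Bmal1-labelled library is left, it is assumed to vary like the Cxcr4-labelled libraries. Depth limits Cxcr4-labelled library 1 most, with 99 reads over the 8 genes.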
